A study of Saccharum hybrid cultivar with 68 samples.

Results

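A microRNA (miRNA) can differ between 2 sugarcane genotypes in stem and in leaf by different amounts, and the size of that inequality was measured here. The members were all 24 small RNA libraries of the series, out of 68 libraries of all kinds, chosen by their labels alone. They came from stem and leaf of the genotypes ROC22 and GT86_887 (the labels have a hyphen in that name) at the early and late stages of sucrose accumulation, the period in which cane stores sugar in its stem. The groups were ROC22 early stem, ROC22 late stem, GT86_887 early stem and GT86_887 late stem, with the same groups in leaf, and 3 libraries in each. Both genotypes are Saccharum hybrid cultivars that contrast in sucrose content, with no treatment in the labels, but which has the higher content is left unstated there. RNA came from whole tissue, so fewer cells of a type and less RNA per cell cannot be told apart. Nothing in the labels says that libraries of a group are different plants. The p-values therefore rest on library-to-library spread alone, which may be technical. For each entry of the deposited miRNA table, the log2 fold change ROC22 minus GT86_887 in stem had the same fold change in leaf subtracted from it, as the mean of the early and late stages. A positive result, called a positive tissue difference below, means that ROC22 stood higher against GT86_887 in stem than in leaf.

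Plant miRNAs are short RNAs that are cut from hairpin precursors and that guide an Argonaute protein to matching mRNAs, which are cleaved or held from translation. Many conserved families act on transcription factors, others on hormone receptors or on proteins of phosphate, sulfate and copper supply. In cane, leaf makes sucrose and stem stores it.

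Of 844 entries, 285 had enough counts to be tested, and 29 of these (10.2%) passed at an adjusted p below 0.05 in edgeR's quasi-likelihood test with Benjamini-Hochberg adjustment. The tissue difference was positive for 17 entries (5.96% of those tested) and negative for 12 (4.21%), beside a median of 0.18 over all tested entries. That split depended on the scaling, with 14 positive and 24 negative entries under upper quartile scaling (median -0.19) and 28 positive and 6 negative under library totals alone (median 0.62). The 29 entries formed 20 groups once entries of the same family name or of related sequence were joined. The 4 groups with more than 1 entry were miR171 with miR479-z and novel_m0109-5p (5 entries), miR393 (3 entries), miR827 (3 entries) and the pair miR394-x and miR384-x. The mature sequences below carry these results. Capitals mark bases 2 to 8, called the seed here, and T is written as U.

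miR171-y: uGAGCCGAaccaauaucacuc
miR171-z: uGAGCCGAaccaauaucacuuu
miR171-x: cGUGGUAUuguuccggcucaug
novel_m0109-5p: uAUUGUUCcggcucauguccu
miR393-x: cUCCAAAGggaucgcauuuu
miR393-z: uCCAAAGGgaucgcauugauu
miR393-y: uCAGUGCAaucccuuuggaau
miR827-y: uUAGAUGAccaucagcaaaca
miR827-z: uUAGAUGAccaucaacaaaca
miR827-x: uUUUGUUGguggucauuuaacc
miR528-x: uGGAAGGGgcaugcagaggag
novel_m0001-5p: uUGAGUGCagcguugaugagc
miR397-x: uUGAGUGCagcguugaugauc
miR397-z: uUGAGUGCagcguugaugagg
miR394-x: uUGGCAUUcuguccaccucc
miR156-x: uUGACAGAagagagugagcac
miR530-z: uGCAUUUGcaccugcaccucu
miR5381-z: cAAGAUCUguggcuccgaggu
novel_m0013-5p: gAUGUGUGauucauggacuggccc

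The 29 entries had 25 different seeds, and 3 seeds were shared by entries that passed: that of miR171-y, miR171-z and miR479-z, that of miR827-y and miR827-z, and that of miR394-x and miR384-x. miR393-x and miR393-z share a stretch of 17 bases that starts 1 base later in miR393-x, so their seeds count as different. miR479-z had the same sequence as miR171-y, and miR384-x the same as miR394-x, so neither pair is independent. Counts of miR171-y and miR479-z were close in stem, with 1944 and 1932 in GT86_887, and unequal in leaf, with 268 and 166 in ROC22. The entries miR393-y and miR393-z were complementary but for 4 positions, as were miR827-x and miR827-z, as the arms of a hairpin are. The predicted entry novel_m0001-5p (deposited with a hyphen after the first word, as are all predicted entries here) differed from miR397-x and from miR397-z at 1 position each and shared their seed, which is why those are printed although they did not pass. Of the 29, 16 were 21 nt long, against 124 of the 285 tested, and 4 were 24 nt long, against 72 of the 285. Reads of near copies may be split between entries, so levels within a family are uncertain.

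Library totals ran from 183654 to 734189 counts in ROC22 stem, 245931 to 1374497 in GT86_887 stem, 697864 to 1409321 in ROC22 leaf and 640674 to 1632186 in GT86_887 leaf. The most abundant entry was miR396-x in all 12 stem libraries and miR166-y in all 12 leaf libraries. Unigenes carry no gene names in the files, so tissue markers could not be matched. ROC22 late stem library 3 stood apart: its log2 CPM correlated with its own group at 0.903 on average and with the ROC22 early stem libraries at 0.952, while every other library correlated with its own group at 0.935 to 0.981. The results were therefore repeated without it. Levels are in TMM-scaled CPM, each count over its corrected library size, and this scaling let miR166-y reach 1298390 CPM in leaf. The scaling also sets the zero of the tissue difference, since the median over all tested entries ran from -0.47 to 0.56 with the choice of the library that TMM uses as its reference. The sign of the tissue difference of each of the 29 entries was the same with all 24 choices of reference, and 15 of the 29 passed with all of them.

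Within tissues, 94 entries (33%) passed between ROC22 and GT86_887 in stem and 81 (28.4%) in leaf. Of the 29 entries with a tissue difference, 14 passed in leaf alone and 7 in stem alone. Another 4 passed in both tissues in the same direction with unequal size, 2 passed in both with opposite signs, and 2 passed in neither.

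**Figure D1:**
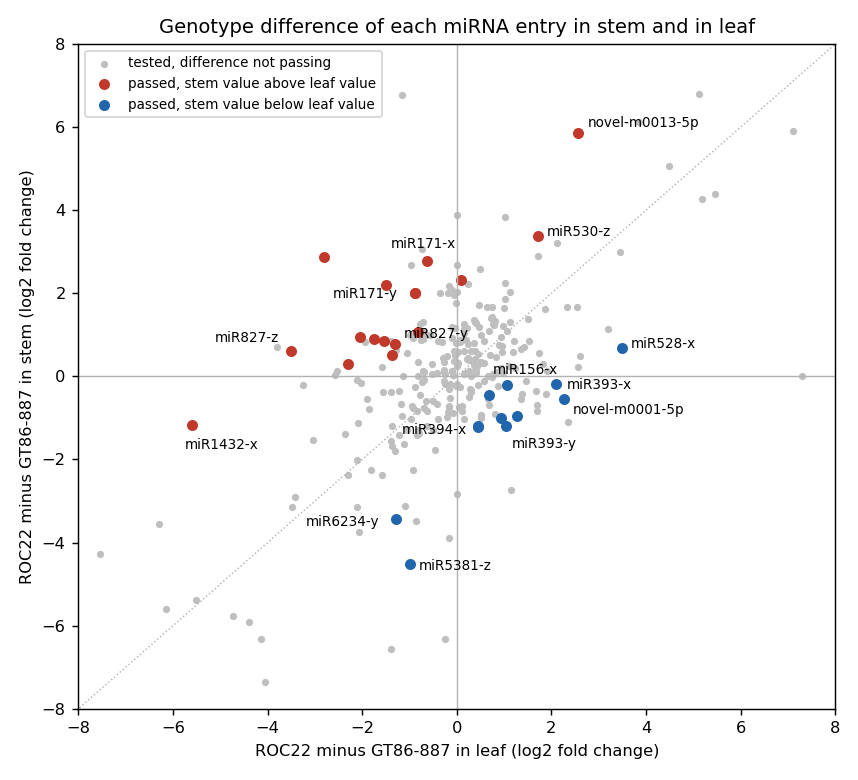
Log2 fold change ROC22 minus GT86_887 in stem (vertical) and leaf (horizontal) for the 285 tested entries, each the mean of both stages. Colour marks the 29 entries that passed the tissue difference, 17 above and 12 below the dotted line of equal values, among them miR393-y, with ROC22 lower in stem and higher in leaf.

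Among families that target transcription factors, 34 entries were tested, of which 4 had a positive and 1 a negative tissue difference, with a median of 0.41 over the list. Over other settings 2 to 8 of them passed with a positive and 0 to 7 with a negative value. miR171, which targets GRAS transcription factors of the HAM group that maintain meristem cells, supplied 3 of the 4, and all 3 of its tested entries passed. In stem miR171-y ran from 562 to 3437 CPM in ROC22 (median 1489) and from 166 to 684 CPM in GT86_887 (median 383). In leaf it ran from 47.5 to 74.5 CPM in ROC22 (median 68.8) and from 66.8 to 171 CPM in GT86_887 (median 132). Over both stages the genotypes overlapped in each tissue, with ROC22 to the high side in stem and to the low side in leaf, and at the late stage they did not overlap in either tissue.

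The fold change of miR171-y was 2.01 ± 0.35 in stem (SE, n = 6 libraries a genotype, edgeR adjusted p = 2.81e-05), where it was higher in ROC22, and -0.87 ± 0.36 in leaf (edgeR adjusted p = 0.0679). The tissue difference was 2.88 ± 0.50 (edgeR adjusted p = 0.000164) and 3.05 without ROC22 late stem library 3. miR171-z, a near copy of miR171-y, had a tissue difference of 2.22 ± 0.59 (edgeR adjusted p = 0.0121), with 2.32 ± 0.38 in stem and 0.10 ± 0.47 in leaf. It missed the threshold in 1 of the 24 fits that left out a library, that without GT86_887 late leaf library 3, at 1.96 (edgeR adjusted p = 0.0538).

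miR171-x, the strand of the other arm, had a tissue difference of 3.41 ± 0.67 (edgeR adjusted p = 0.000634). In ROC22 late stem it stood at 35.2, 22.2 and 230 CPM in libraries 1 to 3, where the last is the library that stands apart, and at 227 to 307 CPM in ROC22 early stem. GT86_887 stem libraries held 5.75 to 54.1 CPM, so that the late ROC22 libraries 1 and 2 lay within the range of GT86_887 and the other ROC22 libraries above it. Without library 3 the value of miR171-x was 2.56 (edgeR adjusted p = 0.00237). novel_m0109-5p, which shares 17 bases with miR171-x, passed as well, but on 49, 6, 1 and 8 counts in ROC22 stem, GT86_887 stem, ROC22 leaf and GT86_887 leaf, too few to read its fitted size.

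miR156-x, of the family that holds back SPL transcription factors and with them the change from juvenile to adult growth, had the negative tissue difference of that list. In leaf it ran from 13653 to 26395 CPM in ROC22 and from 6002 to 11271 CPM in GT86_887, with medians of 19000 and 9511 CPM, so all 6 ROC22 leaf libraries lay above all 6 of GT86_887. In stem the ROC22 libraries ran from 1603 to 2889 CPM and the GT86_887 libraries from 2190 to 2653 CPM, and they overlapped. The fold change was -0.21 ± 0.25 in stem and 1.07 ± 0.25 in leaf, and the tissue difference -1.27 ± 0.36 (edgeR adjusted p = 0.0155). It missed the threshold without ROC22 early leaf library 1 (-1.17) and without GT86_887 late leaf library 1 (-1.18). The other 2 tested entries of miR156 and the tested miR157-x, of a closely related family, had negative values of -1.10 for miR156-z, -0.73 for miR156-y and -1.03 for miR157-x, none of which passed.

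miR396-y is a strand of the family that targets growth-regulating factors, but not the abundant miR396-x. It ran from 129 to 419 CPM in ROC22 stem and 80.8 to 335 CPM in GT86_887 stem, and from 42 to 90.2 CPM in ROC22 leaf and 46.7 to 216 CPM in GT86_887 leaf. The tissue difference was 1.89 ± 0.55 (edgeR adjusted p = 0.0194). It passed in 17 of the 24 fits that left out a library. It was the only entry of the 29 lost without ROC22 late stem library 3, at 1.49 (edgeR adjusted p = 0.0514), and that library held the highest of its stem values.

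Of 9 tested entries of auxin pathway families, 3 had a negative and 0 a positive tissue difference, with a median of -0.74. All 3 were the tested entries of miR393, which targets mRNAs of the TIR1/AFB auxin receptors. In leaf miR393-x ran from 2657 to 9356 CPM in ROC22 (median 5240) and from 565 to 3250 CPM in GT86_887 (median 1526). In stem it ran from 219 to 948 CPM in ROC22 (median 399) and from 346 to 864 CPM in GT86_887 (median 552). ROC22 lay to the high side in leaf, where the genotypes did not overlap within either stage. Over both stages the GT86_887 stem libraries fell inside the ROC22 range. In early stem ROC22 lay wholly lower, at 236 to 399 CPM against 636 to 864 CPM in GT86_887. In late stem ROC22 libraries 1 and 2 (856 and 948 CPM) lay above GT86_887 (346 to 468 CPM) and ROC22 library 3 (219 CPM) lay below it.

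The tissue difference of miR393-x was -2.27 ± 0.45 (edgeR adjusted p = 0.000634), with -0.18 ± 0.31 in stem and 2.09 ± 0.32 in leaf. miR393-z and miR393-y were the 2 entries that passed in both tissues with opposite signs. miR393-z was lower in ROC22 stem (log2 fold change -0.96 ± 0.33) and higher in ROC22 leaf (1.26 ± 0.32), with a tissue difference of -2.23 ± 0.45 (edgeR adjusted p = 0.000709). miR393-y, from the other arm, gave -1.19 ± 0.37 in stem, 1.04 ± 0.36 in leaf and a tissue difference of -2.23 ± 0.52 (edgeR adjusted p = 0.00333). Over both stages libraries of the genotypes overlapped in each tissue for both entries, while within a stage they were apart in early stem and in late leaf. Without ROC22 late stem library 3 the values were -2.06 for miR393-x and -2.07 for miR393-z, and all 3 entries passed. The auxin pathway entries of miR160, miR167 and miR390 did not pass, at -0.77 to 1.35.

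**Figure D2:**
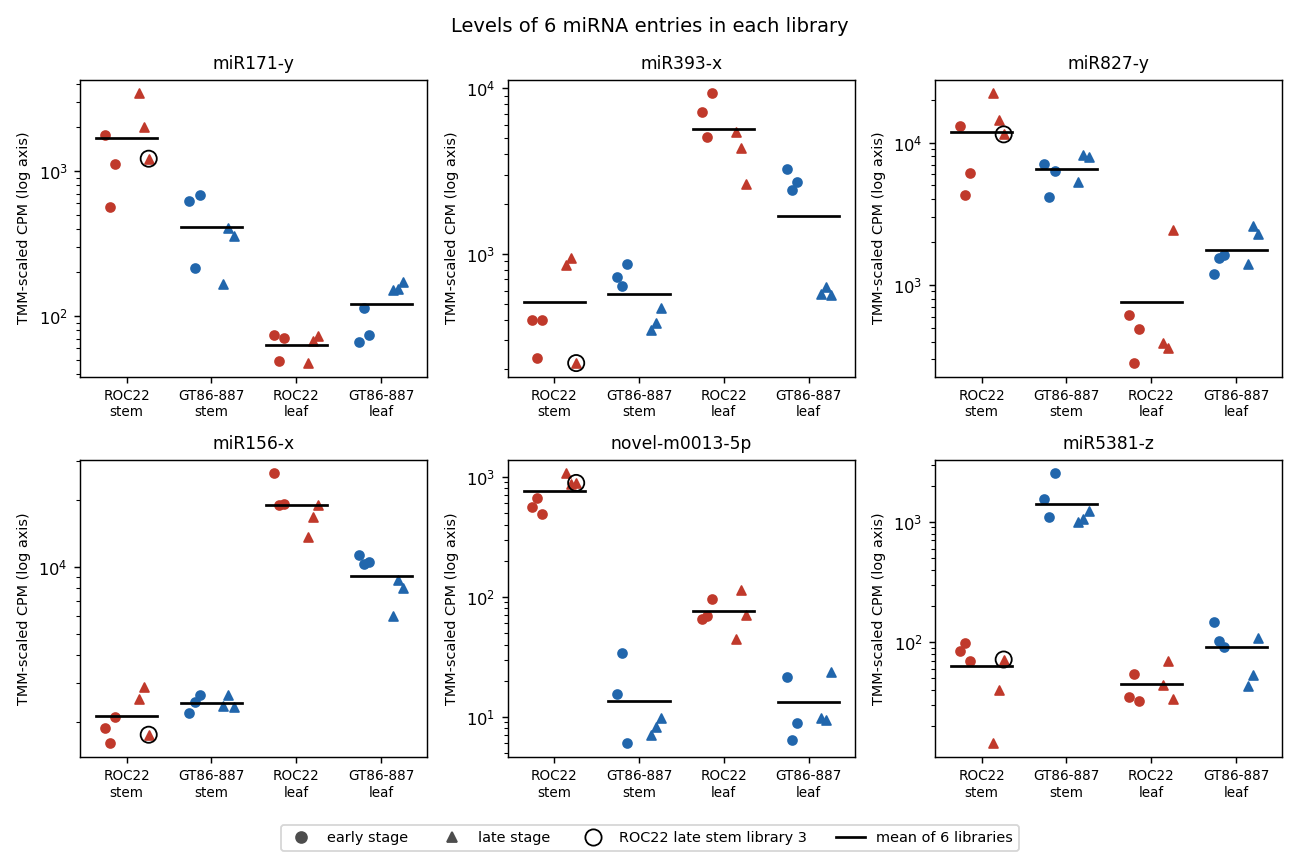
TMM-scaled CPM on log axes of 6 entries in each of the 24 libraries, with circles for the early and triangles for the late stage, a ring around ROC22 late stem library 3 and a bar at the mean of 6 libraries. By these means over both stages, miR171-y stands higher in ROC22 than in GT86_887 in stem alone, and miR393-x and miR156-x in leaf alone. miR5381-z lies lower in ROC22 stem by far more than in leaf.

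Among nutrient and copper families, 18 entries were tested, of which 3 had a positive and 1 a negative tissue difference, with a median of -0.73. The 3 positive entries were all the tested entries of miR827, which targets SPX-domain genes of phosphate supply. In leaf miR827-y ran from 283 to 2417 CPM in ROC22 (median 442) and from 1200 to 2611 CPM in GT86_887 (median 1580). In stem, where it was more abundant, it ran from 4280 to 22187 CPM in ROC22 (median 12246) and from 4149 to 8211 CPM in GT86_887 (median 6705). In leaf 5 of 6 ROC22 libraries lay below all GT86_887 libraries, and ROC22 late leaf library 3 lay among them.

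The tissue difference of miR827-y was 2.11 ± 0.54 (edgeR adjusted p = 0.00871), with 0.79 ± 0.38 in stem and -1.32 ± 0.38 in leaf, of which the leaf value passed. It was 2.82 without the ROC22 late leaf library 3. miR827-x, from the other arm, had a tissue difference of 2.99 ± 0.74 (edgeR adjusted p = 0.00653), with -2.04 ± 0.58 in leaf. miR827-z, 1 base from miR827-y, passed on 64, 51, 1 and 16 counts in ROC22 stem, GT86_887 stem, ROC22 leaf and GT86_887 leaf, so its fitted size is not read.

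miR528-x, of a grass family that targets copper proteins, was the negative entry. In leaf it ran from 27192 to 212955 CPM in ROC22 (median 95508) and from 1135 to 58600 CPM in GT86_887 (median 23840). In stem it ran from 214 to 734 CPM in ROC22 and from 132 to 615 CPM in GT86_887. The tissue difference was -2.81 ± 0.56 (edgeR adjusted p = 0.000643), with 0.68 ± 0.39 in stem and 3.48 ± 0.43 in leaf, where it was higher in ROC22.

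novel_m0001-5p, the near copy of miR397, which targets laccases, had a tissue difference of -2.82 ± 0.56 (edgeR adjusted p = 0.000643). In leaf it ran from 8354 to 152022 CPM in ROC22 and from 879 to 71925 CPM in GT86_887, and in stem from 298 to 1214 CPM in ROC22 and from 258 to 1918 CPM in GT86_887. The 3 tested entries of miR397 itself gave -2.38 to -1.53, the 3 of miR408 -3.45 to -1.51, and the 2 of miR398 -0.67 and -0.08, and none of these 8 passed. The second tested entry of miR528 gave -2.11 and did not pass. Over other settings 1 to 12 entries of the nutrient and copper list passed with a negative value, with 12 when the same 285 entries were fitted without ROC22 late stem library 3.

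In late leaf miR528-x stood at 27192, 118463 and 44986 CPM in ROC22, against 1456, 1135 and 1646 CPM in GT86_887. In early leaf it stood at 212955, 72552 and 144598 CPM in ROC22, against 49714, 58600 and 46035 CPM in GT86_887. The genotypes did not overlap at either stage, and the gap was wider at the late one. The tissue difference of miR528-x was -0.85 ± 0.78 early (edgeR adjusted p = 0.628) and -4.76 ± 0.82 late (edgeR adjusted p = 0.000108), but late minus early, -3.91 ± 1.11, did not pass (edgeR adjusted p = 0.0692).

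Of all tested entries 4 (1.4%) passed the test of late minus early, all with negative values, and they are named after their values were seen. These were miR398-x, miR398-y, miR408-x and miR1432-y. As families, miR398 targets copper/zinc superoxide dismutases and miR408 blue copper proteins and laccases. Whether miR398-x and miR408-x are the strands that act on these targets was not tested. In leaf miR398-x stood at 198, 56 and 78.5 CPM in ROC22 early libraries, against 355, 397 and 375 CPM in GT86_887, and at 45.9, 75.3 and 39.1 CPM in ROC22 late libraries, against 3.93, 21 and 12.8 CPM in GT86_887. In leaf ROC22 thus lay wholly below GT86_887 early and wholly above it late.

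In stem miR398-x stood at 272, 466 and 157 CPM in ROC22 early libraries, against 89.9, 152 and 64.6 CPM in GT86_887, and at 3.2, 2.96 and 55.6 CPM in ROC22 late libraries, against 109, 26.3 and 31.2 CPM in GT86_887. There the order was the reverse of that in leaf, except for ROC22 late stem library 3. The tissue difference of miR398-x was 3.30 ± 0.96 early (edgeR adjusted p = 0.0475) and -3.47 ± 1.08 late (edgeR adjusted p = 0.0378), so that its mean over stages was -0.08 and did not pass. Late minus early was -6.77 ± 1.44 (edgeR adjusted p = 0.0118), and it passed in 39 of 40 other settings and fits without a library. Over these it ran from -9.78 to -5.92, with -9.55 without ROC22 late stem library 3. Counts of miR398-x were 49 in ROC22 late stem and 17 in GT86_887 late leaf. ROC22 late stem libraries 1 and 2 lay below the level of 3 counts (4.79 and 4.43 CPM), so the fitted size is uncertain.

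For miR398-y late minus early was -5.34 ± 1.30 (edgeR adjusted p = 0.0352) and for miR408-x -4.52 ± 1.20 (edgeR adjusted p = 0.0467), and these passed in 27 and 19 of the 40. miR1432-y, of a grass family, rested on 0 to 9 counts in every group but GT86_887 early leaf, and its fitted size is not read. Without ROC22 late stem library 3, 23 entries passed late minus early, among them all 4, and 14 of them were positive and 9 negative, so the single direction did not hold.

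**Figure D3:**
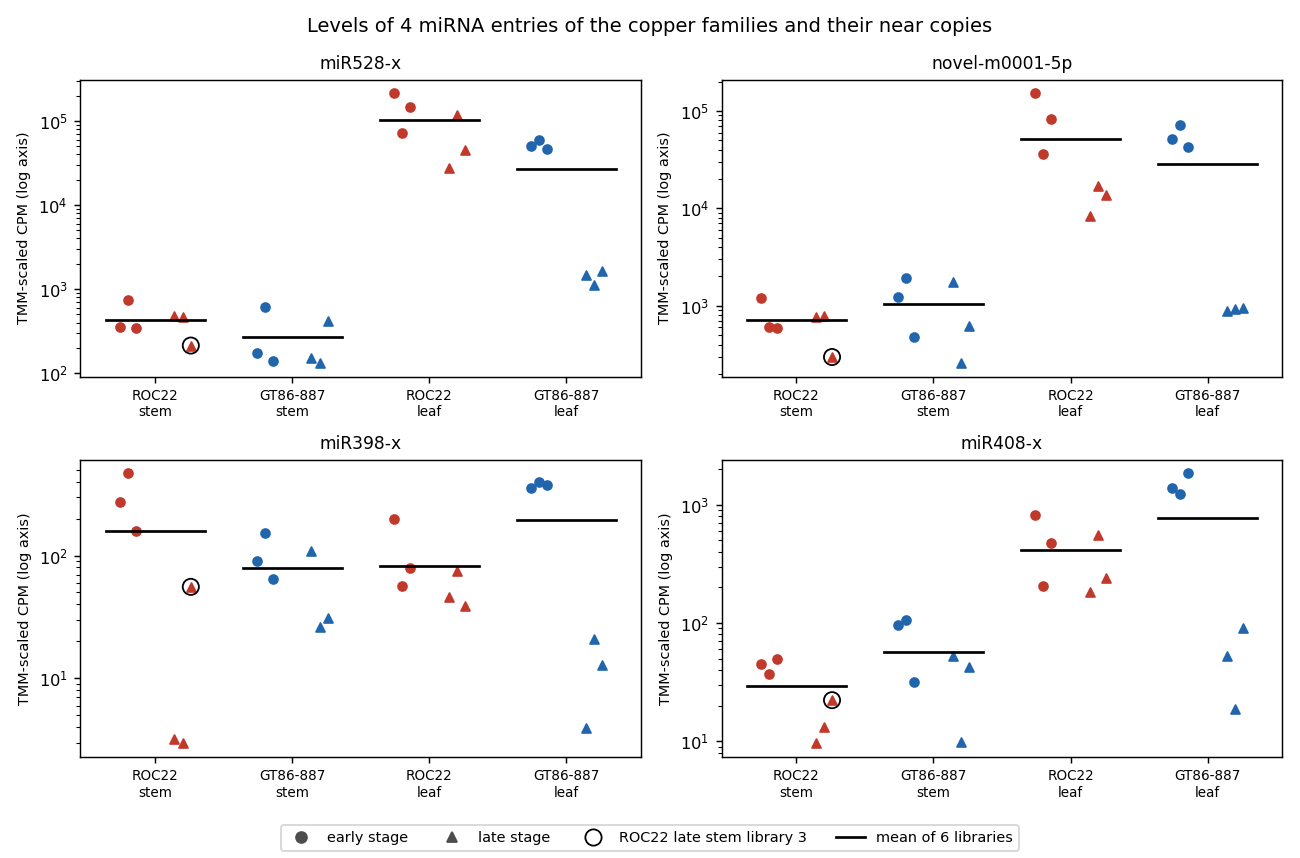
TMM-scaled CPM on log axes of miR528-x, novel_m0001-5p, miR398-x and miR408-x in each of the 24 libraries, with circles for the early and triangles for the late stage and a bar at the mean of 6 libraries. In GT86_887 leaf the late triangles lie far below the early circles for all 4 entries, and in ROC22 leaf they lie closer to them.

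Among other plant families 8 entries were tested, of which 3 had a positive and 1 a negative tissue difference, with a median of 1.43, and 1 of the 3 was miR479-z, the duplicate of miR171-y. miR530-z, whose target in rice is a Plus-3 domain protein, ran from 12303 to 31602 CPM in ROC22 stem, against 858 to 7038 CPM in GT86_887 stem. In leaf it ran from 5447 to 15938 CPM in ROC22 and from 631 to 8649 CPM in GT86_887. The genotypes did not overlap in stem, and in leaf they did not overlap within either stage. It was higher in ROC22 in stem by 3.38 ± 0.38 and in leaf by 1.71 ± 0.36, and the tissue difference of miR530-z was 1.67 ± 0.50 (edgeR adjusted p = 0.0219). It passed in 14 of the 24 fits that left out a library, over which its value ran from 1.40 to 2.04.

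miR1432-x, of a grass family, was at 276 to 2248 CPM in all GT86_887 leaf libraries, against 3.57 to 40.9 CPM in ROC22 leaf, with no overlap. In stem it was near its counting floor, with 1.23 to 4.79 CPM in ROC22 and 0.821 to 26.3 CPM in GT86_887, where 3 counts equal 2.46 to 4.92 CPM in a stem library. The leaf fold change was -5.59 ± 0.54 and the tissue difference of miR1432-x 4.41 ± 0.90 (edgeR adjusted p = 0.000712), on 15 and 39 counts in ROC22 and GT86_887 stem. miR394-x, which targets an F-box gene of leaf and meristem development, went the other way. It ran from 152 to 455 CPM in ROC22 stem and from 366 to 1257 CPM in GT86_887 stem, and from 73.7 to 190 CPM in ROC22 leaf and from 52.5 to 179 CPM in GT86_887 leaf. It was lower in ROC22 stem (log2 fold change -1.20 ± 0.33), with 0.45 ± 0.33 in leaf and a tissue difference of -1.65 ± 0.47 (edgeR adjusted p = 0.0157). It missed the threshold without ROC22 early leaf library 1 (-1.52) and without GT86_887 late stem library 2 (-1.45).

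Of the 6 tested entries of the families that target DCL1 and AGO1 of the small RNA machinery, 0 passed the tissue difference in edgeR and 0 had an unadjusted p below 0.05, with a median of -0.15. With limma voom 1 passed and with DESeq2 0, and 2 passed with a negative value when the same 285 entries were fitted without ROC22 late stem library 3. The single tested entry of the resistance gene families, at 1.56, did not pass either.

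The entry with the lowest adjusted p among positive values, and that among negative values, have no role stated here. miR5381-z stood at 14.4 to 98.6 CPM in ROC22 stem (median 70.8), against 999.7 to 2527 CPM in GT86_887 stem (median 1172). In leaf it stood at 32.1 to 69.3 CPM in ROC22 (median 39.5) and at 43.2 to 146 CPM in GT86_887 (median 97.1). The genotypes were far apart in stem, and in leaf they were apart at the early stage and overlapped at the late stage. miR5381-z was lower in ROC22 in both tissues, with log2 fold changes of -4.52 ± 0.38 in stem and -0.99 ± 0.35 in leaf and a tissue difference of -3.53 ± 0.50 (edgeR adjusted p = 1.07e-05).

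novel_m0013-5p stood at 490 to 1066 CPM in ROC22 stem (median 765), against 6.01 to 34.3 CPM in GT86_887 stem (median 9.03). In leaf it stood at 44.2 to 113 CPM in ROC22 (median 70) and at 6.47 to 23.5 CPM in GT86_887 (median 9.58). Its ROC22 libraries lay above all GT86_887 libraries in each tissue, and the gap was wider in stem. The fold change was 5.87 ± 0.42 in stem and 2.57 ± 0.40 in leaf, and the tissue difference of novel_m0013-5p was 3.30 ± 0.56 (edgeR adjusted p = 0.000155).

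miR6234-y resembled miR5381-z in order, with 16.4 to 114 CPM in ROC22 stem and 183 to 1279 CPM in GT86_887 stem, and 7.14 to 31.7 CPM in ROC22 leaf and 23.1 to 55.6 CPM in GT86_887 leaf. Its tissue difference was -2.15 ± 0.50 (edgeR adjusted p = 0.00337). miR5564-z was among the 5 most abundant entries, at 17692 to 23877 CPM in ROC22 stem and 19747 to 34227 CPM in GT86_887 stem. In leaf it stood at 92902 to 175776 CPM in ROC22 and 54968 to 91624 CPM in GT86_887, without overlap. Its tissue difference was -1.13 ± 0.36 (edgeR adjusted p = 0.0323), the smallest in size of the 29, and it passed in 9 of the 24 fits that left out a library (-1.31 to -0.93).

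miR6218-x and novel_m0037-3p were stem entries with 0 to 8.19 CPM in any ROC22 leaf library, where 3 counts equal 3.57 to 5.94 CPM. novel_m0007-3p and novel_m0089-3p were leaf entries with 0 to 22.2 CPM in any stem library, where 3 counts equal 2.46 to 4.92 CPM. All 4 had lower levels in ROC22 leaf than in GT86_887 leaf and positive tissue differences of 2.38 to 3.70. The larger of these rested on 4 counts in GT86_887 stem. Without ROC22 late stem library 2, novel_m0007-3p (1.94) and novel_m0089-3p (3.11) missed the threshold, as did novel_m0089-3p without ROC22 early stem library 2 (3.20). miR2916-z and miR6223-y passed in neither tissue, and their tissue differences were 1.89 ± 0.59 and -1.94 ± 0.61 (edgeR adjusted p = 0.0316 and 0.0323). They passed in 12 and 11 of the 24 fits that left out a library. In all, 23 of the 29 had enough counts for the filter in each tissue taken alone, and 6 in 1 tissue alone.

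Apart from miR528-x and miR5564-z, the most abundant entries did not pass. miR396-x, which held the most counts in stem, had a tissue difference of 0.16 ± 0.42 (edgeR adjusted p = 0.972), and miR166-y, which targets class III HD-ZIP transcription factors and held the most counts in leaf, 0.32 ± 0.37 (edgeR adjusted p = 0.715). For miR162-y the value was -0.11 ± 0.52, for miR167-x -0.37 ± 0.45 and for miR9774-z 0.63 ± 0.48. miR168-y, of the family that targets AGO1, gave -0.63 ± 0.50 in all libraries and -1.24 (edgeR adjusted p = 0.0256) without ROC22 late stem library 3. Its ROC22 late stem libraries held 8167, 14022 and 58154 CPM, with library 3 at 58154.

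By stage, 9 entries (3.16%) passed the tissue difference at the early stage and 32 (11.2%) at the late stage, and 4 passed at both. All 29 entries had the same sign at both stages, but they were chosen on the mean of these stages, which favours a shared sign. Of the 29, 6 passed early and 14 passed late, each stage with 3 libraries a group.

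Without ROC22 late stem library 3, 40 of 325 tested entries passed (12.3%), 23 with a positive and 17 with a negative tissue difference. They included 28 of the 29, and all 29 kept their sign. That fit tested more entries, and when the same 285 entries were fitted without this library 52 passed, 10 positive and 42 negative (median -0.54), and they included 22 of the 29. The 12 of the 40 entries that were not among the 29 had been tested in all 24 libraries too. Among them were miR444-z at 1.49 ± 0.36 (edgeR adjusted p = 0.00363), miR172-x at -1.65 ± 0.45 (edgeR adjusted p = 0.0111) and miR164-z at 1.85 ± 0.55 (edgeR adjusted p = 0.0192), chosen after their values were seen. Their families target MADS-box, AP2-like and NAC transcription factors, in that order, which need not hold for each strand. In all 24 libraries these entries gave 1.23, -0.68 and 1.62.

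**Figure D4:**
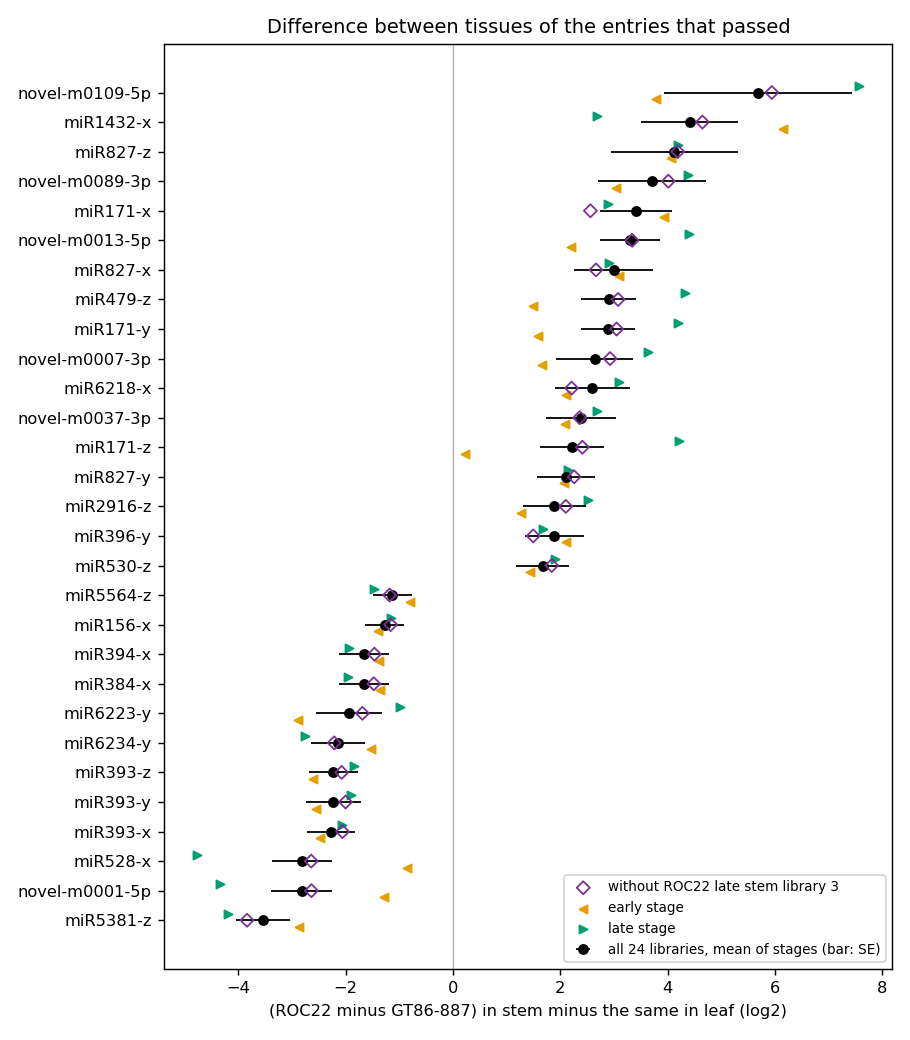
Tissue difference (log2) of the 29 entries, from all 24 libraries with SE (black), without ROC22 late stem library 3 (open diamonds), at the early stage (left triangles) and at the late stage (right triangles). All marks of an entry lie on the same side of 0, which the choice of entries by the mean of both stages favours. The early and late marks of miR171-z and miR528-x lie farthest apart.

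The degradome file pairs miRNA entries with unigenes (assembled transcripts) whose uncapped 5' ends were read. It lists 56 pairs for 17 of the 29 entries, and 38 of the pairs rest on at most 10 tags over the 8 degradome libraries. The same tissue difference was computed for the mRNA of the early and late stages in 24 libraries of 17970015 to 24929466 counts. Of 40586 tested unigenes 8779 (21.6%) passed, as did 15 of the 51 tested unigenes in these pairs (29.4%), 6 with positive and 9 with negative values. Of the 717 tested unigenes paired with any entry in the file, 189 (26.4%) passed. The median was -0.12 over the 51 and -0.06 over all unigenes. Of the 16 pairs whose unigene passed, the sign was opposite to that of the miRNA in 9 and the same in 7. These pairs hold 15 unigenes and are not independent. A unigene paired with both miR393-x and miR393-z counts with each, at the opposite sign.

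A unigene paired with miR393-x and with miR393-z, chosen after its values were seen, had 2.79 to 5.3 CPM in ROC22 stem and 1.62 to 2.57 CPM in GT86_887 stem. In leaf it had 0.934 to 1.76 CPM in ROC22 and 1.6 to 2.83 CPM in GT86_887. Stem libraries of the genotypes did not overlap, and leaf libraries did. Its tissue difference was 1.23 ± 0.29 (edgeR adjusted p = 0.00393), with 14 tags in the pair with miR393-x, 3 from stem and 11 from leaf, beside -2.27 for that miRNA. The other unigene paired with miR393-x, on 2 tags, gave -0.42 ± 0.15 (edgeR adjusted p = 0.0555), the sign of the miRNA.

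miR530-z had the pair with the most tags among these entries, 13 from stem and 379 from leaf. The unigene, also chosen after its values were seen, had 5.64 to 11.1 CPM in ROC22 stem, against 16.5 to 30.3 CPM in GT86_887 stem without overlap, and 242 to 350.4 CPM in ROC22 leaf, against 258 to 568 CPM in GT86_887 leaf with overlap. Its tissue difference was -0.97 ± 0.20 (edgeR adjusted p = 0.0014), beside 1.67 for miR530-z. By stage the unigene gave -1.62 ± 0.29 early (edgeR adjusted p = 0.000636) and -0.32 ± 0.28 late (edgeR adjusted p = 0.555), so it passed at the early stage alone.

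Of the 11 pairs of miR156-x, 2 of the 10 tested unigenes had positive and 3 negative values. c139690.graph_c0 gave -1.51 ± 0.29 (edgeR adjusted p = 0.000738), the sign of miR156-x itself, and c142254.graph_c0 0.54 ± 0.12 (edgeR adjusted p = 0.00225). In leaf c142254.graph_c0 had 332 to 451 CPM in ROC22 and 478 to 632 CPM in GT86_887, without overlap, and in stem 103 to 158 CPM in ROC22 and 113 to 138 CPM in GT86_887. The tags of miR156-x in all its pairs were 25 in stem and 225 in leaf, scaled neither for depth nor for the levels of the unigenes. Those of miR530-z in all its pairs were 15 in stem and 409 in leaf.

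c137378.graph_c0, paired with miR5381-z on 6 tags, had the smallest adjusted p of the 51, with -1.67 ± 0.23 (edgeR adjusted p = 1.76e-05), again the sign of the miRNA. It had 26 to 69.6 CPM in ROC22 leaf and 11.3 to 17.8 CPM in GT86_887 leaf, without overlap, while in stem it had 8.59 to 22.1 CPM in ROC22 and 9.98 to 20.6 CPM in GT86_887. c112095.graph_c0, paired with miR6218-x on 1 tag, gave 0.93 ± 0.18 (edgeR adjusted p = 0.000973), with 29.1 to 41.3 CPM in ROC22 stem and 16.6 to 26.2 CPM in GT86_887 stem. The pair of miR6218-x with the most tags, 8 from stem and 28 from leaf, had a unigene at -0.82 ± 0.24 (edgeR adjusted p = 0.0201), opposite in sign to the miRNA. None of the 6 tested unigenes of miR528-x passed, at -0.19 to 0.34, and for miR827-y 1 of 10 was positive and 1 negative.

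**Figure D5:**
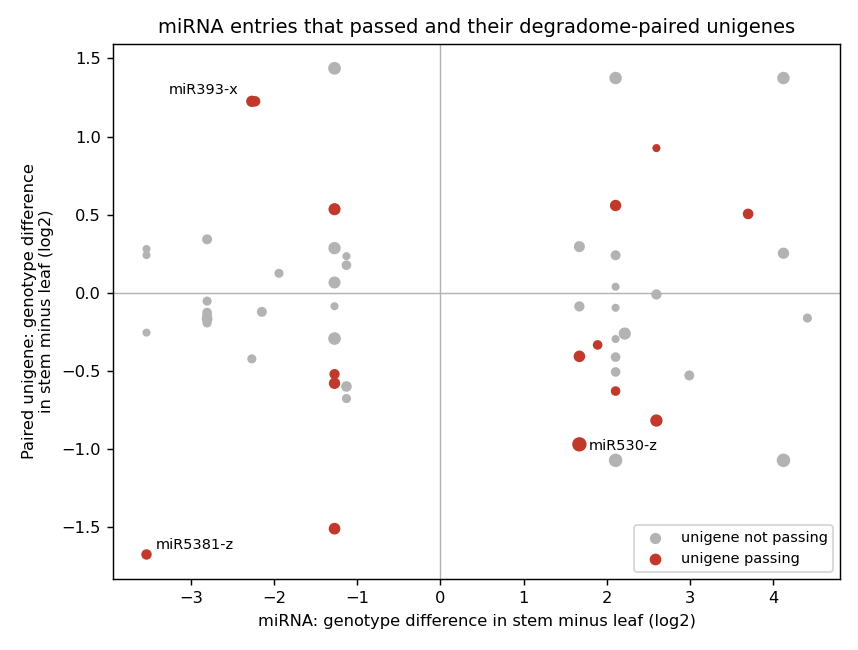
Tissue difference (log2) of the miRNA (horizontal) and of its paired unigene (vertical) for the 54 tested pairs, with larger points for more degradome tags and red for unigenes that passed. Passing unigenes lie on both sides of 0 for either sign of the miRNA, with the pairs of miR393-x and miR530-z at opposite signs and that of miR5381-z at the same sign.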

How the data were processed

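Small RNA was sequenced in 24 libraries, mRNA in 36 and the degradome in 8. Per the labels' protocols, RNA was extracted with Trizol and small RNA was size-selected on gels. The authors deposited a count per miRNA entry and per unigene and library, and tag numbers per miRNA and unigene pair. The TPM columns beside the miRNA counts were not used. Aligner, assembly and miRNA caller: not given in the sources used here. Columns were matched to libraries by their codes, and each group held 3 libraries.

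Counts were scaled by TMM, filtered with filterByExpr (minimum count 10, minimum total 15) and fitted in edgeR 4.0.16 (R 4.3.3) with 1 coefficient per group. The quasi-likelihood test was used, and p-values were adjusted by Benjamini-Hochberg over all tested entries. The p-values and log2 values are from these fits. The mRNA fit used the 24 early and late libraries. The fits were tested on simulated data. Other settings are DESeq2 1.42.0 and limma 3.58.1 (voom with quality weights), other scalings and filters, and leaving out each library. A floor is 3 counts, and covers counting error only.

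Entries named are the 10 of lowest adjusted p for each sign, all listed families that passed, entries of opposite sign in the tissues and the 5 most abundant of each tissue. The other 5 entries that passed are named after their values were seen. Of unigenes, at most 2 in each direction are named. The members, lists and families were chosen with earlier results of these data known. Replicate numbers were not used to pair libraries in the stated fit. Over all groups, deviations of same-numbered libraries correlated at -0.0146 on average (-0.34 to 0.30), and 12 of 84 pairs exceeded 0.1. Stem and leaf of the same genotype and stage were not examined apart from the rest, so this average cannot exclude a pairing of those.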

Additional observations from a re-analysis of the deposited data

Results flagged for a closer look

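For 29 entries the genotype difference in stem and in leaf differed by a test of that difference itself (edgeR, adjusted p below 0.05). Entries with a positive value were miR171-y (2.88), miR479-z (2.90), miR171-x (3.41), miR171-z (2.22), miR827-x (2.99), miR827-y (2.11), miR396-y (1.89), miR530-z (1.67), miR2916-z (1.89), miR1432-x (4.41) and miR6218-x (2.60). Predicted entries with a positive value were novel_m0013-5p (3.30), novel_m0007-3p (2.64), novel_m0037-3p (2.38) and novel_m0089-3p (3.70). On 1 count in ROC22 leaf each, the fitted values were 4.13 for miR827-z and 5.68 for novel_m0109-5p, and these sizes are not bounds.

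Entries with a negative value were miR5381-z (-3.53), miR528-x (-2.81), novel_m0001-5p (-2.82), miR393-x (-2.27), miR393-y (-2.23), miR393-z (-2.23), miR6234-y (-2.15), miR6223-y (-1.94), miR384-x (-1.66), miR394-x (-1.65), miR156-x (-1.27) and miR5564-z (-1.13).

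For 4 entries the tissue difference itself differed between the late and early stages. Late minus early was -6.77 for miR398-x, -5.34 for miR398-y and -4.52 for miR408-x. The size for miR398-x is uncertain, as it rests on few counts in ROC22 late stem and GT86_887 late leaf. The fitted value for miR1432-y was -10.79 on few counts and is not a bound.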

How the results depend on the processing

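All 29 entries kept the sign of their tissue difference in the 12 other settings, the 24 fits without a library and the 4 settings chosen after seeing the data, wherever an entry was tested, and also relative to the median of all entries. Of the 29, 20 passed in each of the 12 settings that gave a value, 16 in all 24 fits without a library, and 12 in both and with every TMM reference. The count of 29 was 22 to 40 when a library was left out and 79 with limma voom. With ROC22 late stem library 3 left out it was 52 for the same 285 entries, where 10 were positive and 42 negative, and 44 with RLE scaling. Upper quartile scaling gave 14 positive and 24 negative calls, library totals 28 and 6, a minimum count of 50 gave 14 and 20, the filter in each tissue 14 and 16, and the TMM references with the lowest and highest median gave 9 and 27, and 27 and 7. These moved the median to -0.19, 0.62, -0.12, 0.05, -0.47 and 0.56, from 0.18. The cause was not tested. The replicate block gave 28 entries, and 20 at the late stage, and 5 of 24 libraries correlated best with their own number.

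Counts in stem fell to 56 at a minimum count of 50 and to 53 with the filter in each tissue, and in leaf to 50 and 45, as fewer entries were tested. Early, 46 passed with limma voom, 17 for the same entries and 15 with RLE without ROC22 late stem library 3, and 5 with the highest TMM reference, and 2 to 11 with a library left out. Late, 50 passed with DESeq2, 77 with limma voom, 54 and 55 without that library, and 13 to 53 with a library left out. Late minus early, 1 passed with RLE and with the highest TMM reference, 0 with library totals, where 43 had an unadjusted p below 0.05 in the stated fit, 10 without a filter, 20 with the filter in each tissue, 18 with DESeq2, 40 with limma voom, 17 and 27 without ROC22 late stem library 3, and 1 to 23 with a library left out. Opposite signs were found for 4 entries with RLE, upper quartile scaling, limma voom and either TMM extreme, 7 with library totals, 1 without a filter, 6 with DESeq2 and in both fits without that library, and 1 to 5 with a library left out. The mRNA count was 7837 to 9538 with a library left out, and the other 5 settings stayed within 1.5 times. Depth limited miR827-z, novel_m0109-5p, novel_m0089-3p, miR1432-y and the stem values of miR1432-x and novel_m0007-3p. It also limited the ROC22 leaf values of miR6218-x and novel_m0037-3p, and the late values of miR398-x in ROC22 stem and GT86_887 leaf.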
